A study of Mus musculus with 2 samples.

Results

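Cytosolic ribosomal protein genes encode the proteins of the small and the large subunit of the ribosome that translates messenger RNA in the cytoplasm. They were taken by name, as Rpl or Rps followed by a number, together with Rplp0, Rplp1, Rplp2, Rpsa and Rps27rt, and without the S6 kinases and the names of pseudogenes. The rule found 85 of the 22838 rows of the expression table. Rps27 and Rps27rt carried the same position in the table and were summed, which left 84 genes, 33 of the small subunit and 51 of the large one. A gene with a mean of at least 1 FPKM over both libraries is called measured, where FPKM is the number of fragments scaled by transcript length and by the number of mapped fragments. Of the 84 genes, 82 were measured, and 10928 genes were measured in all. The remaining pair, Rpl3l and Rpl10l, was listed at 0 and 1.84 FPKM in the untreated library and at 0.065 and 0.097 FPKM with ALA.

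The libraries came from NIH3T3, an established line of mouse embryonic fibroblasts. One library was made from untreated cells and the other from cells kept with 100 µM ALA for 16 h. ALA is not spelled out in the labels; heme biology uses these letters for δ-aminolevulinic acid, a precursor of heme, and no vehicle or passage is named. With 1 library per group no spread between cultures could be measured, so no test was run and every difference below compares these libraries, not the conditions.

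A ribosome holds a single copy of nearly every one of its proteins, and only the acidic stalk proteins are present in several copies, so the genes are known for being expressed together and at a high level. Their messenger RNAs commonly begin with a cytosine followed by a run of pyrimidines, the terminal oligopyrimidine (TOP) motif, through which the kinase mTOR and the protein Larp1 set how strongly they are translated. Most of these genes also have many processed pseudogenes, intronless copies of the messenger RNA, elsewhere in the genome.

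The starts of 7 members are shown because this motif is the sequence that the family is known for. Each line is the stretch of 30 bases around the start that RefSeq annotates on GRCm38.p6, the assembly that mm10 names, read 5′ to 3′ on the gene's strand, and the capitals mark a C with at least 4 further pyrimidines in a row that begins within 5 bases of that start. They are Rps21 at chr2:180257364-180257393 (+), Rplp2 at chr7:141447636-141447665 (+), Rps15a at chr7:118116133-118116162 (-), Rps6 at chr4:86857353-86857382 (-), Rpl14 at chr9:120571502-120571531 (+), Rps27 at chr3:90213634-90213663 (-) and Rps27rt at chr9:114982725-114982754 (-).
Rps21: taccgaggacccgCCCTCCTgcccaatagt
Rplp2: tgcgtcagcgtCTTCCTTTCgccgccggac
Rps15a: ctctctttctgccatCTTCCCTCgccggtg
Rps6: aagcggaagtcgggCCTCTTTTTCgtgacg
Rpl14: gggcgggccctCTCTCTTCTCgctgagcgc
Rps27: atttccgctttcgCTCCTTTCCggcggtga
Rps27rt: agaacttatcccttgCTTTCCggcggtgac
The promoter table held 64 of the 85 named genes. Its annotated start base was itself such a C, on the gene's own strand, in 14 of the 64 members (21.9%) and in 3.01% of all 27025 genes of the table. The 7 members shown above are all among these 14. A run beginning within 5 bases of the start was found in 30 members (46.9%) and in 21.2% of all genes. A match is a description of the letters at the annotated start, which need not be the start used in these cells.

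Summed over all members, ribosomal protein genes held 122066 of 540963 FPKM in the untreated library and 108456 of 512324 FPKM in the ALA library, which is 22.6% and 21.2% of the totals. This family therefore held a large part of the FPKM in each library. Members made up 5 of the 10 most abundant genes, 31 of the first 50 and 58 of the first 100 by mean FPKM. The median member stood at 1372 FPKM in untreated cells and 1203 FPKM with ALA, and the number of members at 1000 FPKM or more was 55 without and 47 with ALA. The order of the members hardly differed between the libraries: over 76 members, paralogs and Rpl26 left out, Spearman's rho between both sets of levels was 0.98, a description over genes that share the same 2 libraries.

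The fibroblast label was checked against marker genes. Of 10 fibroblast markers 9 were measured, with summed levels of 12743 FPKM untreated and 11194 FPKM with ALA; Lum was at 0 in both. Summed markers of epithelium (1.23 and 0.96 FPKM), muscle (1.95 and 1.12) and erythroid cells (2.50 and 1.84) were near 0. Macrophage and blood markers summed to 29.0 and 16.4 FPKM, most of it Lyz2 and Cd14, both lower with ALA, while Ptprc (0.37 and 0.75) and Cd68 (0.24 and 1.40) were low and higher with ALA. Adipocyte markers summed to 51.3 and 52.3 FPKM, all of it Lpl, with Adipoq and Fabp4 at 0 in both. From the steps between low values, depth was put at about 21900000 reads untreated and 31600000 reads with ALA, where 27500000 to 32400000 were nearly as good in the ALA library. On that rough estimate the counting error of a member's log2 difference had a median of 0.01 and reached 0.06 for Rpl30, Rpl26 and paralogs left out. This estimate takes 1 transcript length per gene and leaves out errors in placing reads among near-identical genes. The differences below are mostly larger than this counting error, but the error between cultures is not known.

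Most members were lower in the ALA library by a small amount. Differences are given as the log2 of (ALA FPKM + 1)/(untreated FPKM + 1), here and in parentheses after each pair of levels below. By this measure 67 of 82 members (81.7%) were below 0 and 15 above it, beside 52.2% below 0 over all measured genes. The median member was at -0.19, with quartiles at -0.28 and -0.06, beside a median of -0.02 over all genes. At least 1.2-fold lower were 27 members and at least 1.2-fold higher were 2, Rpl26 and Rpl27, beside 22.7% and 20.3% of all genes. Differences of 1.5-fold or more were found for 3 members, Rpl37 and Rps21 lower and Rpl26 higher, beside 13% of all genes, and a difference of 2-fold or more for Rpl26 alone, beside 3.49% of all genes. The family was therefore displaced in 1 direction with few large single differences.

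Ribosomal protein genes are abundant, and abundant genes as a group were also slightly lower. Of 272 other genes whose mean reached 200 FPKM, 61.8% were lower and 18.4% at least 1.2-fold lower, with a median of -0.06. Among the 76 members at that level 65 were lower, 25 at least 1.2-fold, with a median of -0.20. The deposited totals themselves differ. Setting both libraries to the same FPKM total adds about 0.08 to the log2 difference of an abundant gene, slightly less at low levels. Then 57 of 82 members were lower (69.5%, beside 43.1% of all genes), with a median of -0.12 beside 0.05. At least 1.2-fold lower were 9 members, beside 17.7% of all genes, and at least 1.2-fold higher were 4, beside 26.2%. The share of members at least 1.2-fold lower was thus below that of all genes with equal totals, and above it as deposited. A total of 57 members were lower and 15 higher under each of 3 scalings tried. A scaling moves all members by nearly the same amount, so these counts follow from the largest shift and are not 3 separate checks. Rpl4, Rpl6, Rpl9, Rpl23a, Rpl35, Rpl35a, Rps4x, Rps6, Rps9 and Rpsa were lower as deposited and higher with equal totals.

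**Figure D1:**
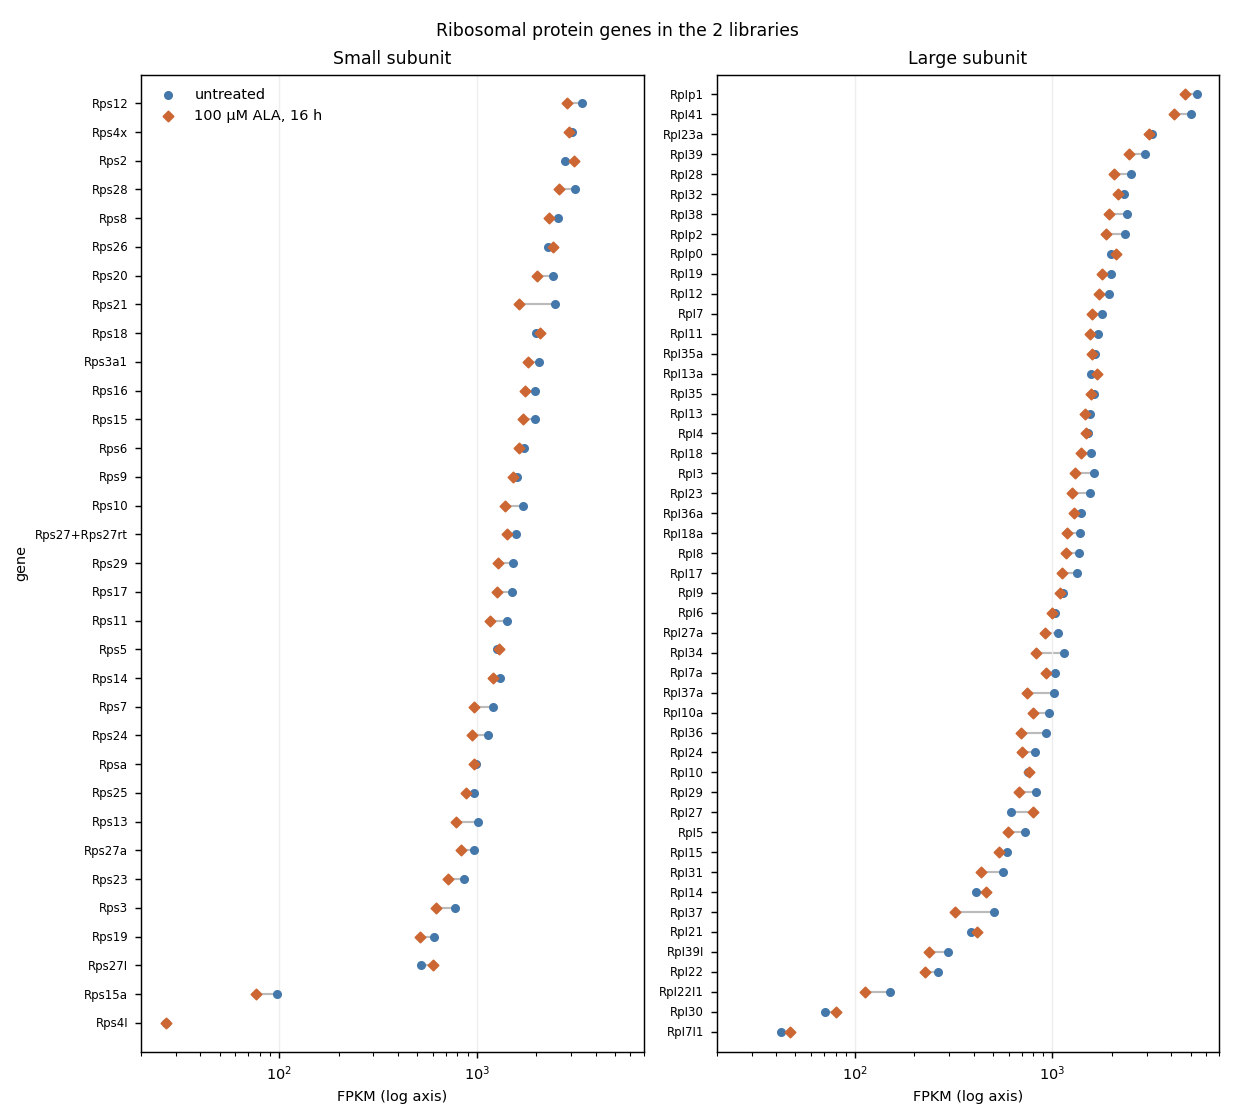
Deposited FPKM (log axis) of 81 measured ribosomal protein genes in the untreated library (circles) and the ALA library (diamonds), small subunit on the left and large subunit on the right, ordered by mean level. Most diamonds lie slightly to the left of their circles, with the widest gaps at Rps21, Rpl37, Rpl34 and Rpl37a; Rpl26, at 0.0008 and 30.4 FPKM, is off the scale.

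The small subunit binds the messenger RNA and reads its codons. Its genes summed to 53138 FPKM untreated (9.82% of the total) and 47477 FPKM with ALA (9.27%). Of its 33 measured genes 27 were lower, 11 of them at least 1.2-fold, with a median of -0.20. The large subunit joins the amino acids; its genes summed to 68927 FPKM (12.7%) and 60979 FPKM (11.9%). Of its 49 measured genes 40 were lower, 16 of them at least 1.2-fold, with a median of -0.18. Over all measured genes 22.7% were at least 1.2-fold lower. The medians of both subunits thus lay at nearly the same distance below 0. The small subunit spanned -0.61 to 0.20; Rpl37, Rpl27 and Rpl26 of the large subunit lay outside that range.

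Proteins of the head of the small subunit line the path on which messenger RNA enters and transfer RNA moves. Of the 14 head genes 12 were lower, within -0.32 to 0.06 and with a median of -0.24, or -0.16 with equal totals. Rps3, which sits at the messenger RNA entry channel, was at 778 FPKM untreated and 623 FPKM with ALA (-0.32), the lowest of the head. Rps12, the most abundant gene of the small subunit, read 3418 and 2862 FPKM (-0.26), and Rps28, near the messenger RNA exit, 3153 and 2622 FPKM (-0.27). Rps19, the gene most often mutated in Diamond-Blackfan anaemia, was at 610 and 518 FPKM (-0.24). Rps27a, made as a fusion with ubiquitin, was at 968 and 835 FPKM (-0.21). These 5 head genes spanned a wide range of levels, and their log2 differences lay close to each other.

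The body and platform hold the remaining proteins of the small subunit, and here the genes were more spread. Of 17 genes 15 were lower, within -0.61 to 0.14 and with a median of -0.16. Rps21, a small protein on the solvent side next to Rpsa, was at 2501 FPKM untreated and 1644 FPKM with ALA (-0.61), the lowest value of the small subunit. Its deposited position is chr2:180257378-180258444, and the gene has 6 exons in the transcript used. Rpsa, the laminin receptor that binds beside it, was at 992 and 969 FPKM (-0.03), so these neighbours in the ribosome did not move by the same amount. Rps13 was at 1019 and 790 FPKM (-0.37) and Rps15a at 98.1 and 76.2 FPKM (-0.36), the latter being the least abundant core gene of the small subunit. Rps14, whose loss marks the 5q- syndrome, was at 1309 and 1216 FPKM (-0.11). Rps6, the protein that S6 kinases phosphorylate, was at 1728 and 1645 FPKM (-0.07), and Rps4x, encoded on the X chromosome, at 3050 and 2945 FPKM (-0.05); both lie among the genes whose side depends on the scaling. Rps2, at the messenger RNA entry channel with Rps3, was higher with ALA, at 2815 and 3092 FPKM (0.14).

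**Figure D2:**
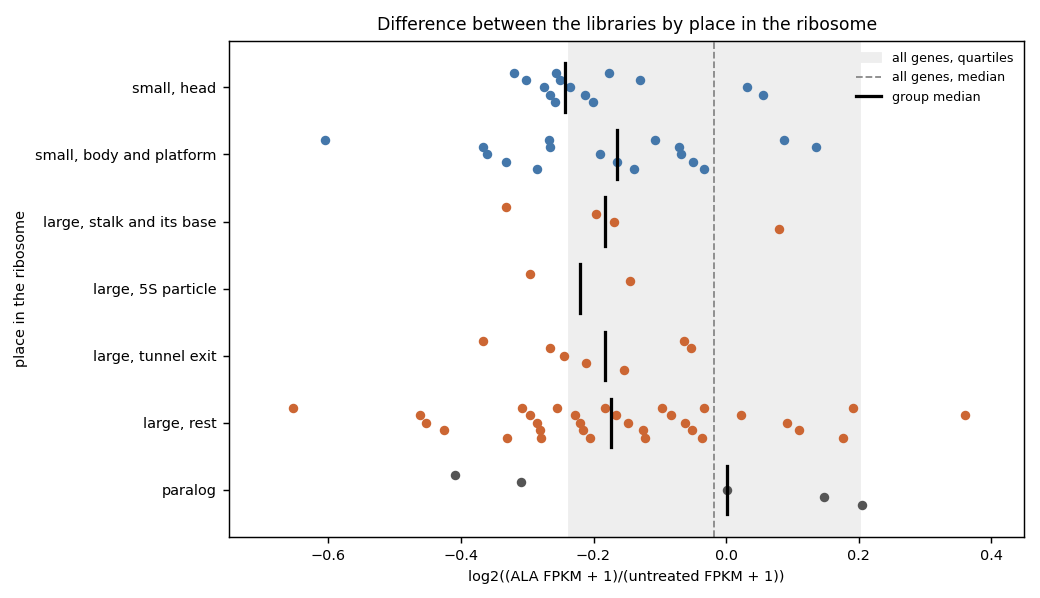
Log2 difference between the ALA and the untreated library for 81 measured ribosomal protein genes (points) by the place of the protein in the ribosome, with the median of each group (black bars) and the median and quartiles of all measured genes (dashed line and shading). Group medians of the core places lie between -0.24 and -0.16, while the 5 measured paralogs scatter on both sides of 0; Rpl26 is off the scale.

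The stalk of the large subunit recruits the elongation factors to the ribosome. Rplp1, an acidic stalk protein and the most abundant member of all, was at 5383 FPKM untreated and 4696 FPKM with ALA (-0.20); it lies at chr9:61913282-61914510. Rplp2, its partner, was at 2337 and 1857 FPKM (-0.33). Rplp0, which anchors both of them, was at 1989 and 2101 FPKM (0.08) and so lay on the other side of 0 from its acidic partners. Rpl12, at the base of the stalk, read 1931 and 1717 FPKM (-0.17).

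Rpl5 and Rpl11 form a particle with the 5S ribosomal RNA and, when not built into a ribosome, bind Mdm2, the protein that degrades p53. Rpl5 was at 730 FPKM untreated and 594 FPKM with ALA (-0.30). Rpl11 read 1709 and 1545 FPKM (-0.15). Both were lower, Rpl5 by more.

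Around the tunnel exit, where the new chain leaves the ribosome, 7 of 8 genes were lower, with a median of -0.18. Rpl39, a short protein of the tunnel wall, was at 2925 FPKM untreated and 2433 FPKM with ALA (-0.27). Rpl31 was at 564 and 437 FPKM (-0.37), the lowest of this place. Rpl22, an RNA-binding protein at the outer surface, was at 263 and 227 FPKM (-0.21). Rpl23a, where the signal recognition particle docks, was at 3193 and 3077 FPKM (-0.05), a difference whose side depends on the scaling. The exception above 0 was Rpl26, described with its copies below.

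Of the other 32 core genes of the large subunit 26 were lower, within -0.65 to 0.36 and with a median of -0.17. Rpl37, a small zinc-binding protein, was at 507 FPKM untreated and 322 FPKM with ALA, the lowest log2 difference of the family at -0.65. It is deposited at chr15:5116612-5119140 and hosts a small RNA gene in the annotation. Rpl37a, also zinc-binding, was at 1023 and 747 FPKM (-0.45), and Rpl36 at 933 and 695 FPKM (-0.43). Rpl34 was at 1143 and 829 FPKM (-0.46), a value that shrinks once its copy is added (below). Rpl41, the shortest ribosomal protein, was at 5040 and 4107 FPKM (-0.30). Rpl3, one of the longest and close to the site of peptide bond formation, read 1632 and 1297 FPKM (-0.33).

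Some genes of the large subunit were higher with ALA. Rpl27 was at 618 FPKM untreated and 793 FPKM with ALA (0.36), the highest value of a member with no copy at the same position; it is deposited at chr11:101442244-101445596. Rpl14 was at 409 and 463 FPKM (0.18) and Rpl21 at 385 and 416 FPKM (0.11). Rpl13a, known as a silencer of translation in interferon-treated macrophages, was at 1569 and 1672 FPKM (0.09). Rpl10, which is added last and completes the large subunit, was at 751 and 762 FPKM (0.02). Apart from Rpl27 these differences were under 1.2-fold.

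Single members with the largest apparent differences shared their position in the table with a near-identical gene. Reads of 41 bases cannot be assigned where copies do not differ, and the strand setting is not given in the sources used here. Rps27, a zinc-binding protein of the small subunit, was at 42.7 FPKM untreated and 1133 FPKM with ALA, and Rps27rt, an intronless copy, at 1547 and 285 FPKM. Both rows were deposited at chr3:90212666-90213648, although GENCODE vM21 annotates Rps27rt as a single exon at chr9:114982366-114982739. Their sum was 1590 FPKM untreated and 1418 FPKM with ALA (-0.16), of which the Rps27 row held 2.69% and 79.9%. The coding parts of both, 255 bases with the stop codon, are identical in the annotated transcripts (100%), and their first 60 bases are shown to make this visible.
Rps27: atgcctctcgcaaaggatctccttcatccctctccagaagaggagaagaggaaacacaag
Rps27rt: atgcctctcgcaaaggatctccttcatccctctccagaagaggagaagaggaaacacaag
The opposite differences of the rows therefore nearly cancel in the sum, which lies near the median of the family.

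Rpl26, a protein at the tunnel exit that also binds the p53 messenger RNA, was at 0.0008 FPKM untreated and 30.4 FPKM with ALA, which gives its log2 difference of 4.97. The pseudogene Gm15772 was deposited at the same position, chr11:68901565-68904534, with 1812 and 1649 FPKM, and is annotated at chr5:3236431-3236868 (+). Together the rows summed to 1812 FPKM untreated and 1679 FPKM with ALA (-0.11), on the other side of 0 from Rpl26 alone. Counting from 1 at the A of the start codon, with the base of the member first, the coding parts of 438 bases differ by C177T and T288C (99.5% identity). The stretch of bases 147 to 206 is shown with C177T in capitals.
Rpl26: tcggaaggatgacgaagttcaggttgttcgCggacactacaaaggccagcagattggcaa
Gm15772: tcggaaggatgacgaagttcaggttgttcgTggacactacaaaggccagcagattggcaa
Nearly all of the signal at this position was thus listed under the name of the pseudogene in both libraries.

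Rpl30, at the interface between the subunits, and Rpl34 showed the same arrangement. Rpl30 was at 70.4 FPKM untreated and 80.6 FPKM with ALA (0.19), while Gm12191 at the same deposited position, chr15:34440505-34443276, was at 3018 and 2965 FPKM. Their sum was 3089 and 3046 FPKM (-0.02). Rpl34 shared chr3:130726826-130730398 with Rpl34-ps1, at 684 and 666 FPKM, and the sum of both was 1827 and 1496 FPKM (-0.29). GENCODE places Gm12191 at chr11:49678710-49679057 and Rpl34-ps1 at chr6:71124610-71124963. The coding parts differ by G96A in the first pair and by T132C and C318G in the second, and bases 66 to 125 and 102 to 161 are shown with G96A and T132C in capitals.
Rpl30: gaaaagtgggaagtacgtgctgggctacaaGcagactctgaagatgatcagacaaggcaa
Gm12191: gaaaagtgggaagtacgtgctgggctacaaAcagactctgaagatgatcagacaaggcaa
Rpl34: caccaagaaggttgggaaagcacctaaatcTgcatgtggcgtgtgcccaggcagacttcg
Rpl34-ps1: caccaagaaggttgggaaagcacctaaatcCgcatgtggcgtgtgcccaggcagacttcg
With these copies added to their members, 69 of 82 members were lower, beside 52.2% of all genes. Rpl27 alone was at least 1.2-fold higher, beside 20.2% of all genes.

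**Figure D3:**
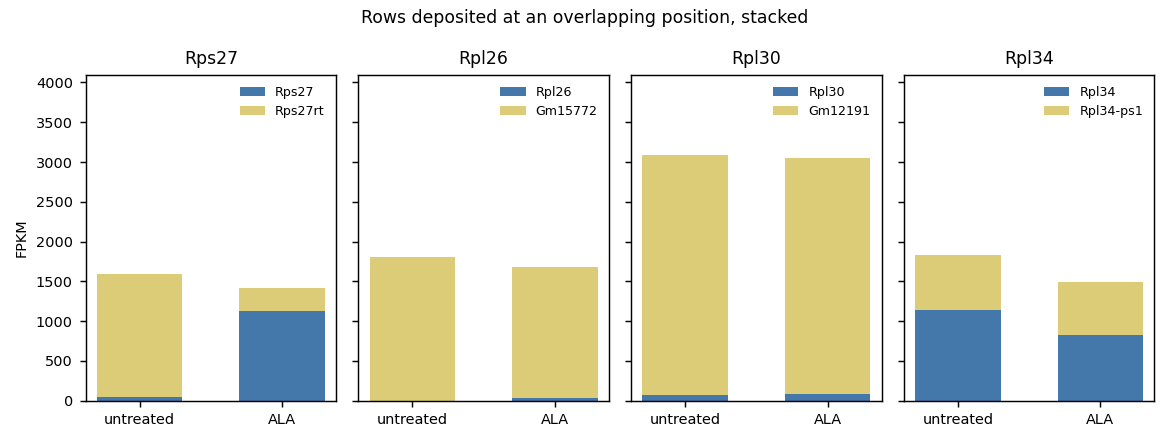
Deposited FPKM of 4 members (lower part of each bar) and of the near-identical gene listed at the same position (upper part), stacked for the untreated and the ALA library, from 1 library each. The parts change places for Rps27 and Rps27rt while the height of the bar goes from 1590 to 1418 FPKM; Rpl26 and Rpl30 are a thin strip under their pseudogenes.

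Shared sequence is a general property of the family and was measured for all members but Rps4l. The median member shared 57.4% of its 41-base stretches with another annotated gene, and 51 members shared 50% or more. These 51 had a median of -0.16. The 24 members that shared 10% to 50% had a median of -0.23, and the 6 members under 10% one of -0.29. Of these 6 members 5 were lower, 4 at least 1.2-fold, beside 22.7% of all genes. Across 76 core members rho between the shared percent and the log2 difference was 0.24. Members with the lowest shared percent were thus not closer to 0 than the others. This does not show how members with well-placed reads behave, because the percent is taken over the whole of 1 transcript. For Rps15a and Rps20, both under 10%, that transcript has 5130 and 3706 bases, with coding parts of only 390 and 357 bases. These members share stretches with 94 and 594 genes, so a low percent need not mean that their coding reads are placed without doubt.

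The length of the coding part varied with the difference. Of 28 members with a coding part under 400 bases 25 were lower, 16 at least 1.2-fold, with a median of -0.27. Of 30 members of 400 to under 600 bases 26 were lower, with a median of -0.21. Of 23 members of 600 bases or more 16 were lower, with a median of -0.07 that becomes 0.01 with equal totals, while the other classes stay at -0.19 and -0.13. Short genes such as Rpl37, Rps21 and Rpl37a lay at the lower end, and long ones such as Rplp0 and Rps2 were above 0. Rpl3 and Rps3 were long genes that were lower. The highest values were not those of long genes. Rpl26, Rpl27, Rps27l and Rpl30, with coding parts of 435, 408, 315 and 345 bases, lay above Rplp0 and Rps2. Across 76 core members rho between coding length and the log2 difference was 0.39. Among other genes whose mean reached 100 FPKM the medians of the same classes were -0.09 (116 genes), -0.005 (122) and -0.02 (403), and rho was 0.08 over 641 genes. Of those 116 genes under 400 bases 26.7% were at least 1.2-fold lower. The part that fragment size or length correction in the libraries may have in this was not tested.

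**Figure D4:**
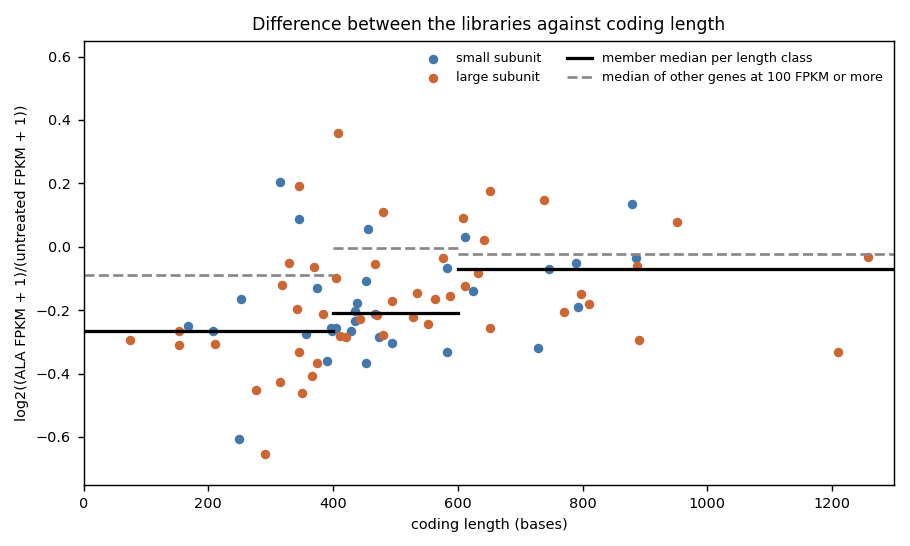
Log2 difference between the libraries against coding length in bases for measured ribosomal protein genes (points), with the member median in each of 3 length classes (black) and that of other genes at 100 FPKM or more (dashed grey). The member medians go from -0.27 through -0.21 to -0.07 with length; Rpl26 is off the scale but counted in its median.

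Members with and without the pyrimidine run at the annotated start had similar medians. Since that start need not be the one used, members without a run here may still carry the motif, and the comparison does not separate them by it. Of the measured members with a start in the promoter table, 29 with a run within 5 bases had a median of -0.17 and 32 without one a median of -0.20. Hosting a small RNA gene in an intron, as 32 members do, made little difference either, with medians of -0.18 for hosts and -0.20 for the other 49. Among the members shown at the top, Rps21 and Rplp2 were among the lower genes and Rpl14 among the higher ones. Those shown all carry the run at the annotated start itself, so they do not stand for the family.

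Paralogs are sister genes that can take the place of a core protein. Of the 5 measured paralogs 2 were lower. Rpl22l1 was at 150 FPKM untreated and 113 FPKM with ALA (-0.41), which was 57.2% and 49.8% of its sister Rpl22. Rpl39l, a sister of Rpl39 known from male germ cells, was at 295 and 237 FPKM (-0.31), or 10.1% and 9.76% of Rpl39. Rps27l, a target of p53, was at 523 and 603 FPKM (0.20), and went from 32.9% to 42.5% of Rps27 and Rps27rt together. Rpl7l1 was at 42.1 and 46.8 FPKM (0.15), or 2.35% and 2.96% of Rpl7, and Rps4l at 26.8 FPKM in both, under 1% of Rps4x. Paralogs thus did not follow their main genes in a common way, as Rpl22l1 was further below 0 than Rpl22, while Rps27l was on the other side of 0 from the sum of Rps27 and Rps27rt.

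Some genes of the ribosome that the naming rule leaves out were looked up as well. Fau, which encodes a ubiquitin-like protein fused to a small subunit protein, was at 1777 FPKM untreated and 1257 FPKM with ALA (-0.50). Gnb2l1, also named Rack1, a scaffold on the small subunit head, was at 1487 and 1595 FPKM (0.10). Rpl36al, a sister of Rpl36a, was at 573 and 616 FPKM, or 40.8% and 47.8% of Rpl36a.

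Mitochondria have ribosomes of their own, whose proteins are encoded by Mrpl and Mrps genes in the nucleus. Of 77 such genes, all measured, 26 were lower and 51 higher with ALA, with a median of 0.10, or 0.18 with equal totals. At least 1.2-fold lower were 8 and at least 1.2-fold higher were 25, beside 22.7% and 20.3% of all genes. The median of the mitochondrial set was thus above 0 where that of the cytosolic set was below it. With 1 library per group the difference between the sets was not tested.

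Translation factors and other abundant genes whose messenger RNAs commonly carry the TOP motif formed a list of 16, of which 13 were lower (median -0.12), 2 of them at least 1.2-fold. Eef1a1, which brings transfer RNA to the ribosome, was the most abundant at 7033 FPKM untreated and 6435 FPKM with ALA (-0.13). Tpt1 was at 2865 and 2146 FPKM (-0.42), Hnrnpa1, an RNA-binding protein, at 107 and 83.5 FPKM (-0.35), and Vim, the filament protein vimentin, at 2272 and 1896 FPKM (-0.26). The higher ones were Eef1g (0.22), Eif3f (0.11) and Btf3 (0.07). By sign alone this list was divided much as the ribosomal protein genes. At least 1.2-fold lower were 12.5% of the list, beside 32.9% of the ribosomal protein genes and 22.7% of all genes.

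Ribosome biogenesis factors process ribosomal RNA and assemble the subunits in the nucleolus. Of 53 measured, 37 were higher, with a median of 0.07. At least 1.2-fold higher were 20 and at least 1.2-fold lower were 2, beside 20.3% and 22.7% of all genes. Nmd3, the export adapter of the large subunit, was at 21.1 FPKM untreated and 33.7 FPKM with ALA (0.65), and Ltv1, an assembly factor of the small subunit, at 14.3 and 22.6 FPKM (0.62). Taf1c, of the RNA polymerase I initiation factor, had the highest value (0.87), at a low level of 1.73 FPKM in untreated cells. Gnl3, or nucleostemin, was at 25.4 and 19.6 FPKM (-0.36), with Rrp9 at -0.27 and Polr1c at -0.24. Ncl, nucleolin and the most abundant of them, was at 159 and 152 FPKM (-0.06). These genes were far less abundant than those of the proteins they assemble, so their counting error is larger.

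Chaperones and importers that guard single ribosomal proteins formed a list of 12, of which 10 were higher (median 0.14). At least 1.2-fold higher were 4 of them, beside 20.3% of all genes. Pdcd2, which binds Rps2, was at 6.45 FPKM untreated and 14.2 FPKM with ALA (1.03). Heatr3, an importer of Rpl5, was at 12.7 and 22.4 FPKM (0.77), and Grwd1, which binds Rpl3, at 8.10 and 13.9 FPKM (0.71). Their clients differed among each other, since Rps2 was higher and Rpl5 and Rpl3 were lower with ALA. Aamp (-0.18) and Tsr2, the chaperone of Rps26 (-0.08), were the lower pair, and Nap1l1, the most abundant, was at 521 and 552 FPKM (0.08).

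Genes that control the translation or transcription of the family showed no common side. Of 20 measured, 9 were lower and 11 higher, with a median of 0.04. Rps6kb2, an S6 kinase, was at 5.12 FPKM untreated and 9.90 FPKM with ALA (0.83), and the mTOR complex subunits Rptor and Mlst8 lay on opposite sides at 0.37 and -0.63. Tsc1, an inhibitor of mTOR signalling, was at 0.20. Myc, a transcription factor that drives ribosome production, was at 32.5 and 25.1 FPKM (-0.36), and Eif4ebp1, a repressor of translation that mTOR inactivates, at 163 and 133 FPKM (-0.29). Cnbp, the most abundant, was at 219 and 227 FPKM (0.05).

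Host genes of small nucleolar RNAs carry the TOP motif without encoding ribosomal proteins. Of 8 such genes 4 were lower and 4 higher, with a median of -0.07 that turns to 0.004 with equal totals. Snhg7 was at 9.72 FPKM untreated and 3.76 FPKM with ALA (-1.17) and Snhg5 at 41.2 and 23.5 FPKM (-0.78), with Snhg12 at -0.28. Snhg6 was at 31.3 and 47.1 FPKM (0.57), Snhg3 at 0.28 and Gas5 at 0.20. Snhg1, the most abundant, was at 158 and 142 FPKM (-0.16). The hosts were far more spread than the ribosomal protein genes. They were also far less abundant than most of those genes, so their counting error is larger.

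**Figure D5:**
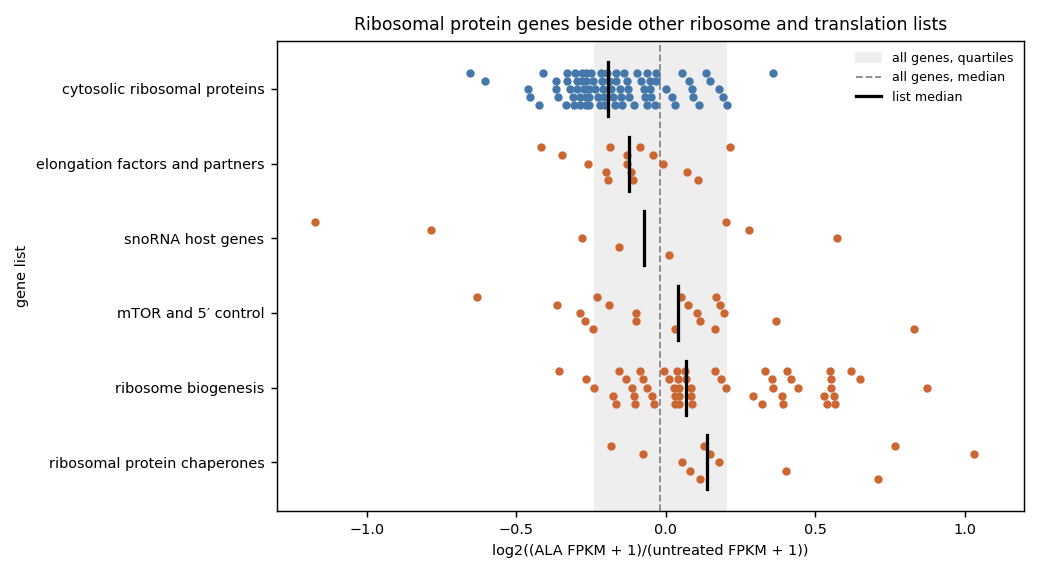
Log2 difference between the ALA and the untreated library for measured genes (points) of 6 lists, with the median of each list (black bars) and the median and quartiles of all measured genes (dashed line and shading). Cytosolic ribosomal protein genes form a narrow band around -0.19, whereas ribosome biogenesis genes and chaperones have medians of 0.07 and 0.14 and reach beyond 0.6; Rpl26 is off the scale.

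Fibroblast markers lay on the same side as most ribosomal protein genes, with 8 of 9 lower and a median of -0.26. Over all measured genes 52.2% were lower, and of 272 genes outside the family whose mean reached 200 FPKM 61.8% were. Whether this has a part in the result was not tested. In bulk RNA, fewer cells of a type and less RNA per cell cannot be told apart.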

How the data were processed

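RNA was sequenced from NIH3T3 cells in 1 untreated and 1 ALA library, as single-end reads of 41 bp from TruSeq libraries, per the labels' protocols. The authors deposited 1 FPKM value per gene and library, with a status and interval bounds, per the file headers. FastQC 0.11.5, TopHat2 2.1.1, Cufflinks 2.2.1 and the build mm10 are named in the submitters' processing notes, while for the annotation, the options, the strand setting and the scaling the sources used here say nothing. Deposited interval bounds equalled the FPKM in all 85 member rows and carry no error, and every member row had the status OK.

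Values were compared as log2((ALA + 1)/(untreated + 1)) of the deposited FPKM, with the mean FPKM of at least 1 as the filter. FPKM is a normalized unit, which bars count models, and with 1 library per group no p-value is given. Depth was estimated from the steps between values of 0.001 to 0.15 FPKM in genes with a single transcript over 1500 bases; the fit of these steps was weak, and intervals from it cover counting error only. Positions, coding lengths and shared 41-base stretches came from GENCODE vM21 (84 of 85 names matched), with one CCDS transcript per gene where there is one; start sequences came from RefSeq. The procedure was tested on simulated data.

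The members, the gene lists and the alternatives were chosen with earlier results of these data known, and the places in the ribosome and the pairs of copies were drawn up after the values were seen. Named are the 8 highest and lowest log2 differences and mean FPKM, the stalk, 5S and paralog genes with their main genes, some members with well-known roles and, of other lists, the 3 highest, the 3 lowest and the most abundant gene; Rpl12, Rpl36al and the genes whose side depends on the scaling were named after their values were seen. Alternatives were other pseudocounts, filters, scalings and ways to sum rows. One gene that the naming rule for lists covers is not reported here.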

Additional observations from a re-analysis of the deposited data

How the results depend on the processing

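The median log2 difference of the ribosomal protein genes was below 0 under all 12 alternatives that give it, from -0.29 to -0.12. With both libraries set to the same FPKM total, 9 members were at least 1.2-fold lower and 4 at least 1.2-fold higher, in place of 27 and 2. The shares over all genes were then 17.7% and 26.2%, in place of 22.7% and 20.3%. With equal totals the median of the small nucleolar RNA hosts turned from -0.07 to 0.0043. This scaling raises the log2 difference of measured genes, by about 0.08 where levels are high. Setting the median ratio of genes at 10 FPKM or more to 1 left 67 members lower, beside 49.8% of all genes. Under that setting 20 of 82 members were at least 1.2-fold lower, beside 21.3% of all genes, so these shares were close. At least 1.2-fold higher was 1 member when all overlapping rows were summed, when copies at the same position were summed, and when members under 100 FPKM were left out. Over all genes the share was 20.2%, 20.2% and 20.3% in these settings. The last pair of these settings was added after seeing the data. Among the 6 members that share under 10% of their sequence, 5 were lower, 4 at least 1.2-fold, and 0 at least 1.2-fold higher. Over all genes these shares were 52.2%, 22.7% and 20.3%. Fewer members are counted there. Other pseudocounts, a filter of 5 FPKM and no filter moved these counts by at most 1. These settings, also among the 12 alternatives, could hardly move the members, since 77 of them reached 100 FPKM in at least 1 library. No paired analysis was possible because each group has 1 library and the labels give no replicate numbers, and for the same reason no replicate could be left out. Depth limits single low genes such as Taf1c, not the abundant members.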
